A study of Danio rerio with 16 samples.

Results

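The genes described here are the sarcomeric myosin heavy chains of zebrafish larvae, centred on myhc4 (ENSDARG00000035438), a fast-muscle heavy chain. The question asked of them was whether the near loss of myhc4 RNA in klf9-/- larvae was met by higher levels of its paralogs. The members are myhc4 and 9 further symbols (myhz1.1, myhz1.2, myhz1.3, myhz2, myha, smyhc1, smyhc2, vmhc and myh6), matched to the table in any letter case. Of these 10 symbols, 9 matched, and they took 11 of the 22994 genes in the table, because 3 gene IDs carry the symbol myh6 or MYH6. The symbol vmhc matched no gene ID. myhc4 was chosen by its low level in klf9-/- larvae relative to WT larvae, with the values of both treatments known, so its genotype differences are given below as a description, with no test.

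RNA-seq was performed on whole larvae of the AB strain at 5 days post fertilization, in 4 groups of 4 samples with 10 larvae each. The groups were klf9-/- larvae with cortisol, WT larvae with cortisol, klf9-/- larvae with vehicle and WT larvae with vehicle. Cortisol was given at 1 µM in the medium, with DMSO as the vehicle of all the other larvae, beginning at about 4 h post fertilization. The klf9-/- larvae are homozygous for a CRISPR frameshift deletion in klf9, carried in a line from 1 founder female, and klf9 encodes a Krüppel-like zinc finger transcription factor. Each group was raised in 1 dish, so the spread between its 4 samples is that of samples from that dish, and the p-values measure that spread only. RNA was extracted in 2 sessions, replicates 1 and 2 first (day 1) and replicates 3 and 4 later (day 2).

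Myosin heavy chain is the motor and the rod of the thick filament of striated muscle. Vertebrates carry many heavy chain genes, often in clusters, and fibres of different speed and the chambers of the heart use different members. In zebrafish, the myhz genes are expressed in fast skeletal muscle, the smyhc genes in slow skeletal muscle and myh6 in the atrium. In the RefSeq gene order of the GRCz12tu assembly the fast-muscle genes lie side by side, in the order myhz2, myhc4, myha, myhz1.3, myhz1.2, myhz1.1, and klf9 lies on the same chromosome, 162 protein-coding genes away. That assembly is not the build used for the counts (GRCz11), so it serves here for the order of the genes only. DNA linked to the klf9 mutation can travel with it in a line from 1 founder, so an effect of klf9 and an effect of a linked variant near myhc4 cannot be told apart in this design.

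The deposited values are log2 of normalized counts, and their scale limits what can be read for the most abundant genes. After normalization every sample held the same set of values, which summed to 14653434 in each of the 16 samples, so sequencing depth and counting error are unknown here. The values formed a ladder whose upper part had exactly 10 genes on each step. Step 1, the highest, stood at 187032 normalized counts, step 2 at 121468, step 3 at 71716 and step 4 at 47665. A gene on the upper steps can differ between samples only by whole steps, and a gene on the highest step cannot be seen to rise. The values are not divided by transcript length, so levels are compared between samples for 1 gene and not between genes, unless stated as counts. Reads shared by near-identical heavy chains were divided among them by the authors' estimation, so values of close paralogs are uncertain to that degree. In pooled whole larvae, fewer fibres of a kind and less RNA per fibre cannot be told apart.

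The targeted gene was checked first. klf9 (listed as KLF9) had 106, 134, 136 and 111 normalized counts in klf9-/- larvae with cortisol, against 330, 511, 354 and 340 in WT larvae with cortisol. It had 135, 78, 100 and 111 in klf9-/- larvae with vehicle, against 274, 250, 243 and 165 in WT larvae with vehicle. No mutant sample reached the lowest WT sample of the same treatment, and the labels of the 16 samples fit this transcript level. The 24 fast-muscle markers summed to between 1123110 and 1256035 normalized counts per sample. By group this sum was 1168568 to 1212043 in klf9-/- larvae with cortisol, against 1123110 to 1227486 in WT larvae with cortisol. With vehicle it was 1205383 to 1214103 in klf9-/- larvae, against 1228421 to 1256035 in WT larvae, so every mutant sum was lower there. A move of 1 gene between steps 1 and 2 alone changes such a sum by 65564. Of the 21 markers tested, 11 had estimates above 0 in klf9-/- larvae with vehicle and 7 below 0. The share of all genes whose groups part in this way was not computed, so nothing is read from the lower sums. The 7 slow-muscle genes summed to between 12725 and 18583 per sample, and the 12 heart genes to between 5596 and 9204. The slow-muscle and heart lists share 2 IDs listed as TNNI1, 1 of which (ENSDARG00000000474) had only 0 to 4 normalized counts and was at 0 in some samples, and the other markers were above 0 in every sample.

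myhc4 was abundant in WT larvae and nearly absent from klf9-/- larvae. In klf9-/- larvae with cortisol the 4 samples had 49, 33, 46 and 58 normalized counts, against 1124, 1430, 2831 and 6552 in WT larvae with cortisol. In klf9-/- larvae with vehicle they had 42, 32, 94 and 76, against 6814, 2372, 1516 and 4128 in WT larvae with vehicle. The genotypes did not overlap in either treatment, and the lowest WT sample stood 19.4 times above the highest mutant sample with cortisol and 16.1 times with vehicle. The group means were 46.5 ± 10.3 in klf9-/- larvae with cortisol, 2984 ± 2492 in WT larvae with cortisol, 61.0 ± 29.0 in klf9-/- larvae with vehicle and 3708 ± 2339 in WT larvae with vehicle (SD, n = 4 each). The mutant means were thus 1.56% of the WT mean with cortisol and 1.65% with vehicle.

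**Figure D1:**
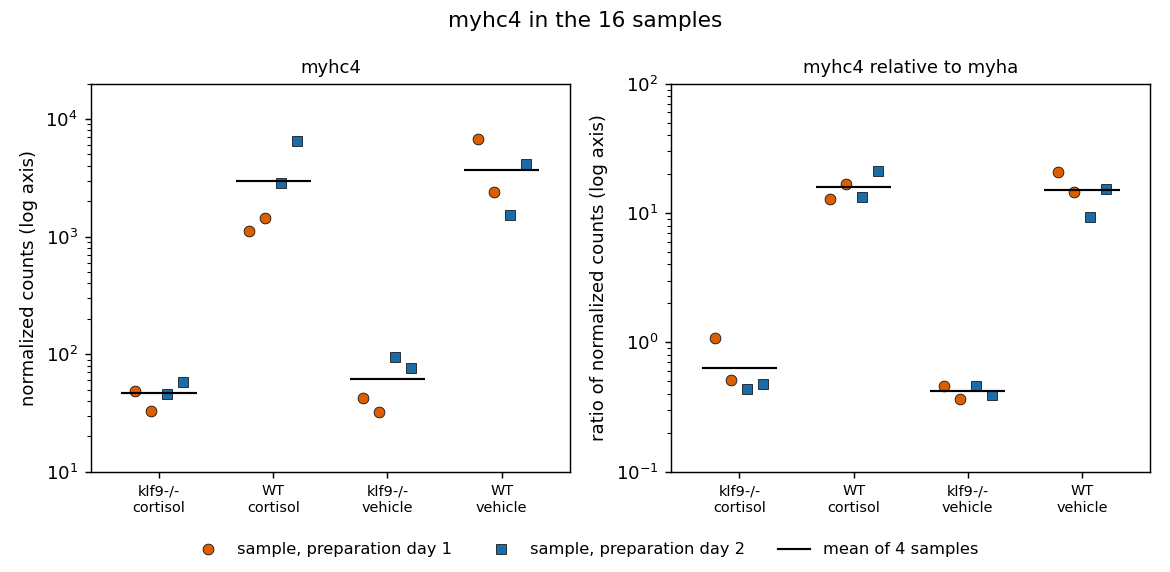
Left, myhc4 in normalized counts per sample on a log axis. Right, the ratio of the normalized counts of myhc4 to those of its neighbour myha in the same sample, on a log axis. Groups run from klf9-/- with cortisol to WT with vehicle, points are samples marked by preparation day, and lines are means of 4 samples. All 8 klf9-/- samples lie at or below 94 normalized counts and all 8 WT samples at or above 1124.

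On the log2 scale the fitted difference of klf9-/- minus WT larvae was -5.68 with cortisol and -5.83 with vehicle. Within each preparation day the mean log2 differences were -4.98 on day 1 and -6.38 on day 2 with cortisol, and -6.77 on day 1 and -4.89 on day 2 with vehicle. Among all genes tested, 0.577% were called higher and 1.45% lower in klf9-/- larvae with cortisol, and 0.242% higher and 0.368% lower with vehicle, and nothing is read from this for myhc4.

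WT samples varied widely in myhc4, over a 6.06-fold range among 8 samples (median 2602), whereas the 8 mutant samples spanned a 2.94-fold range (median 47.5). Much of the WT spread was shared with myha, a neighbour of myhc4. The ratio to myhz2, its neighbour on the other side, was not computed. The ratio of myhc4 to myha in normalized counts ran between 0.364 and 1.09 in the 8 klf9-/- samples (median 0.459) and between 9.24 and 21.1 in the 8 WT samples (median 15.0). In WT samples the SD of log2 was 1.00 for the myhc4 level and 0.39 for the ratio, and in klf9-/- samples it was 0.55 for the level and 0.49 for the ratio. Relative to the slow-muscle gene smyhc1, the WT ratio of myhc4 was less even, with an SD of 0.67 in log2.

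In the summed normalized counts of the 6 fast-muscle genes, myhc4 made up a small part even in WT larvae. Its share of those normalized counts was 0.0155% ± 0.0040 in klf9-/- larvae with cortisol, against 0.750% ± 0.364 in WT larvae with cortisol, and 0.0146% ± 0.0029 in klf9-/- larvae with vehicle, against 0.806% ± 0.406 in WT larvae with vehicle (SD, n = 4 each). This share is of normalized counts, not of transcripts per length, and the level of the largest contributor, myhz1.1, is capped. Within each sample the authors' normalization also matched values across GC content, so a share across genes is not a share of reads. Without myhz1.1 the share was 0.0603% in klf9-/- larvae with cortisol, against 2.56% in WT larvae with cortisol, and 0.0320% in klf9-/- larvae with vehicle, against 1.49% in WT larvae with vehicle, a setting added after the data were seen.

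None of the tested fast-muscle paralogs was called higher in klf9-/- larvae, beside 0.577% of all genes with cortisol and 0.242% with vehicle. At shares this low, no call among so few genes is near the background. myhz1.1 (ENSDARG00000067990) sat at 187032 normalized counts, the highest step, in all 16 samples, so it had no spread and could not be tested. Whether its transcript rose or fell below that cap was not measurable in these values.

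myhz1.2 (ENSDARG00000067995) had 20382, 23432, 71694 and 121446 normalized counts in klf9-/- larvae with cortisol, against 16876, 14830, 121446 and 121446 in WT larvae with cortisol. In vehicle it had 71694, 47652, 121446 and 121446 in klf9-/- larvae, against 121446, 71694, 71694 and 121446 in WT larvae. The genotypes overlapped in both treatments and most samples stood on steps 2 to 4. The log2 difference of klf9-/- minus WT was 0.04 with cortisol (95% interval -0.91 to 0.99, adjusted p = 0.984) and -0.15 with vehicle (-1.10 to 0.80, adjusted p = 0.938). These intervals reach up to 1.99-fold higher with cortisol and 1.74-fold higher with vehicle.

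myhz1.3 (ENSDARG00000067997) had 9634, 9996, 37956 and 71716 normalized counts in klf9-/- larvae with cortisol, against 8734, 9122, 121468 and 121468 in WT larvae with cortisol. The vehicle samples had 15582, 11412, 71716 and 121468 in klf9-/- larvae, against 121468, 15582, 121468 and 121468 in WT larvae. The replicates of day 2 were higher than those of day 1 in every group except the WT vehicle group, where replicate 1 was as high as those of day 2. The log2 difference was -0.54 with cortisol (95% interval -1.62 to 0.54, adjusted p = 0.741) and -1.04 with vehicle (-2.12 to 0.03, adjusted p = 0.411). With vehicle the point estimate was the most negative of the paralogs, and without replicate 1 of the WT vehicle group it was -0.30.

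myhz2 (ENSDARG00000012944) had 10699, 14830, 37939 and 71694 normalized counts in klf9-/- larvae with cortisol, against 8730, 9118, 71694 and 71694 in WT larvae with cortisol. With vehicle it had 29412, 18160, 121446 and 121446 in klf9-/- larvae, against 71694, 23432, 47652 and 121446 in WT larvae. The log2 difference was 0.02 with cortisol (95% interval -0.88 to 0.91, adjusted p = 0.992) and -0.08 with vehicle (-0.97 to 0.82, adjusted p = 0.969). Its sign differed between the days with either treatment: within day 1 the difference was 0.50 with cortisol and -0.83 with vehicle, and within day 2 it was -0.46 with cortisol and 0.67 with vehicle.

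myha (ENSDARG00000095930), the low-level neighbour of myhc4, had the lowest adjusted p for genotype among the members other than myhc4, without passing the threshold, and its estimates were below 0. It had 45, 64, 106 and 121 normalized counts in klf9-/- larvae with cortisol, against 88, 85, 213 and 311 in WT larvae with cortisol. The vehicle samples had 92, 88, 204 and 194 in klf9-/- larvae, against 328, 162, 164 and 268 in WT larvae. Within each preparation day, both mutant samples with cortisol lay below both WT samples with cortisol, while over both days the groups overlapped. How many of all genes part in this way was not computed, so nothing is read from it. The log2 difference was -0.94 with cortisol (SE 0.30, 95% interval -1.56 to -0.31, unadjusted p = 0.0061, adjusted p = 0.144) and -0.72 with vehicle (SE 0.30, -1.34 to -0.09, unadjusted p = 0.028, adjusted p = 0.315). The cortisol difference did pass the threshold in the fit of the 8 cortisol samples alone (adjusted p = 0.0099), with a mean for each condition and day (adjusted p = 0.022), in day 2 alone (adjusted p = 0.042) and without replicate 1 of the WT vehicle group (adjusted p = 0.019). In the other alternatives, of 27 in all, it did not pass, with adjusted p up to 0.80. The share of all genes called in these fits is not given here, so nothing is read from them for myha. The myhc4 difference was far larger than that of myha, so the ratio of the neighbouring pair still separated the genotypes.

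**Figure D2:**
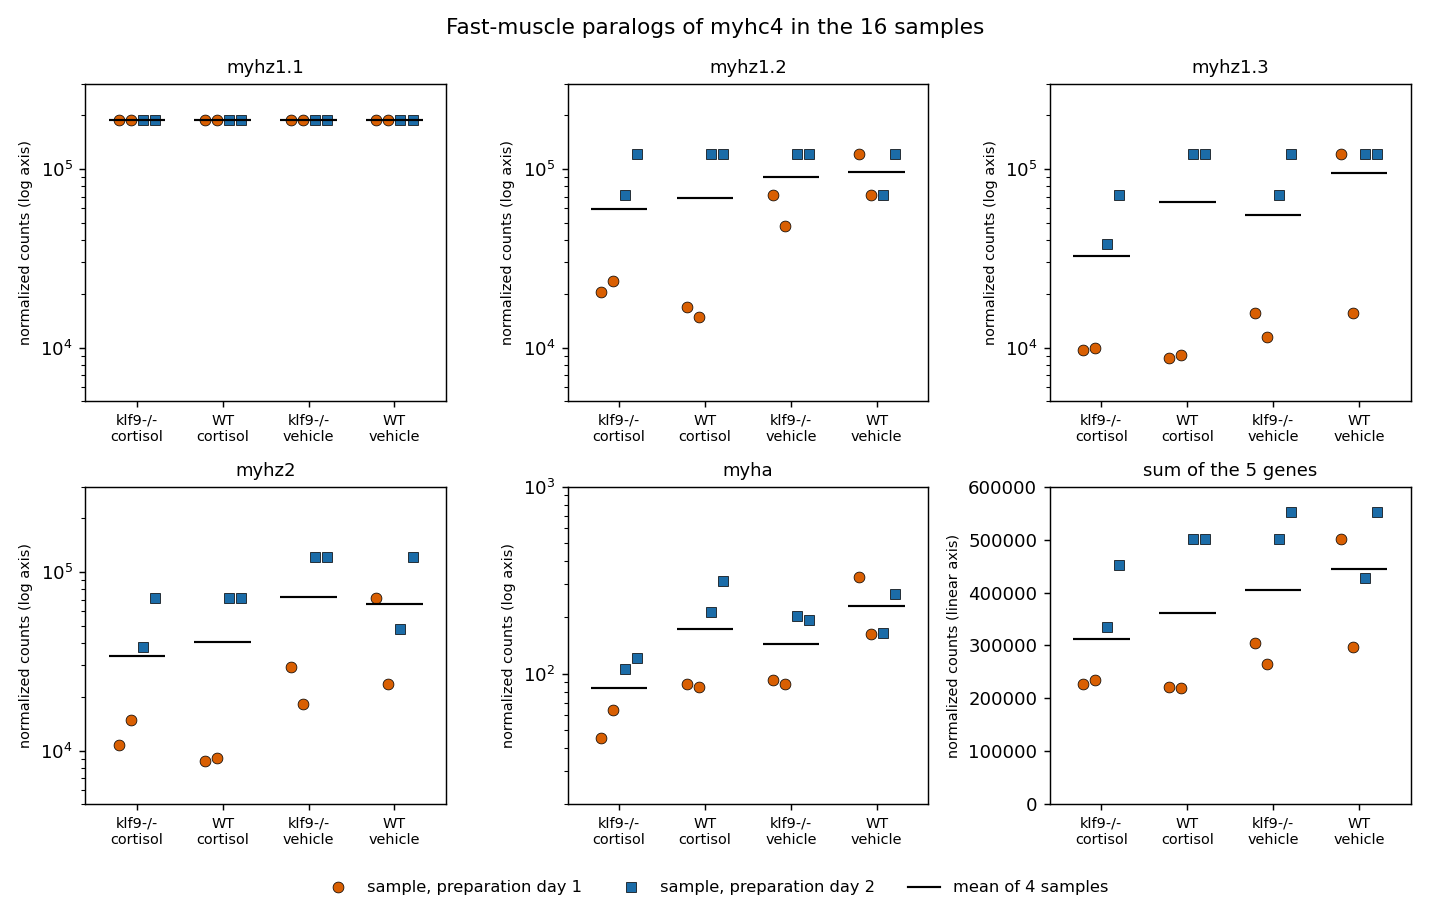
Normalized counts of the 5 fast-muscle paralogs of myhc4 per sample, on log axes, and their sum on a linear axis from 0. Groups run from klf9-/- with cortisol to WT with vehicle, points are samples marked by preparation day, and lines are means of 4 samples. myhz1.1 lies at 187032 in every sample, and in myhz1.2, myhz1.3 and myhz2 the samples part by preparation day more than by genotype.

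The sum of the 5 fast-muscle paralogs was not higher on average where myhc4 was low. Over both days, a rise as large as the myhc4 fall could not be told from the spread of this sum. The sum averaged 312470 ± 105000 normalized counts in klf9-/- larvae with cortisol, against 361363 ± 162300 in WT larvae with cortisol. With vehicle it averaged 405396 ± 142500 in klf9-/- larvae, against 444885 ± 110400 in WT larvae (SD, n = 4 each). On day 1 with cortisol the sums were 227792 and 235354 in klf9-/- larvae, both above the 221460 and 220187 of WT larvae. On day 2 with cortisol they were 334727 and 452009, both below the 501853 and 501951 of WT larvae. On day 1 with vehicle they were 303812 and 264344, against 501968 and 297902 in WT larvae. On day 2 with vehicle they were 501844 and 551586, against 428010 and 551660. These sets of 2 against 2 samples were not tested. Like the share above, this sum is of normalized counts and not of reads. The difference of mean log2 sums over both treatments was -0.16 (two-sided exact permutation test of genotype within treatment and day, p = 0.27 over all relabellings, smallest possible p 0.0015). Without the capped myhz1.1 it was -0.27 (exact permutation p = 0.40, added after the data were seen). The size of these sums sets a limit to the comparison: myhc4 fell by 2938 normalized counts with cortisol and by 3646 with vehicle, whereas the gap from step 2 up to step 1 is 65564, that from step 3 to step 2 is 49752 and that from step 4 to step 3 is 24051. A paralog on these steps could not show a rise the size of the whole myhc4 signal on this count scale. The myhc4 fall was also far smaller than the SD of the sum over both days in every group. The permutation test therefore could not decide whether the paralogs made up for the fall. Going down the ladder, the first gap smaller than the myhc4 fall was that from step 7 up to step 6, at 2927. The next 2 gaps, from step 8 to step 7 and from step 9 to step 8, were 3050 each, again above the fall with cortisol.

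**Figure D3:**
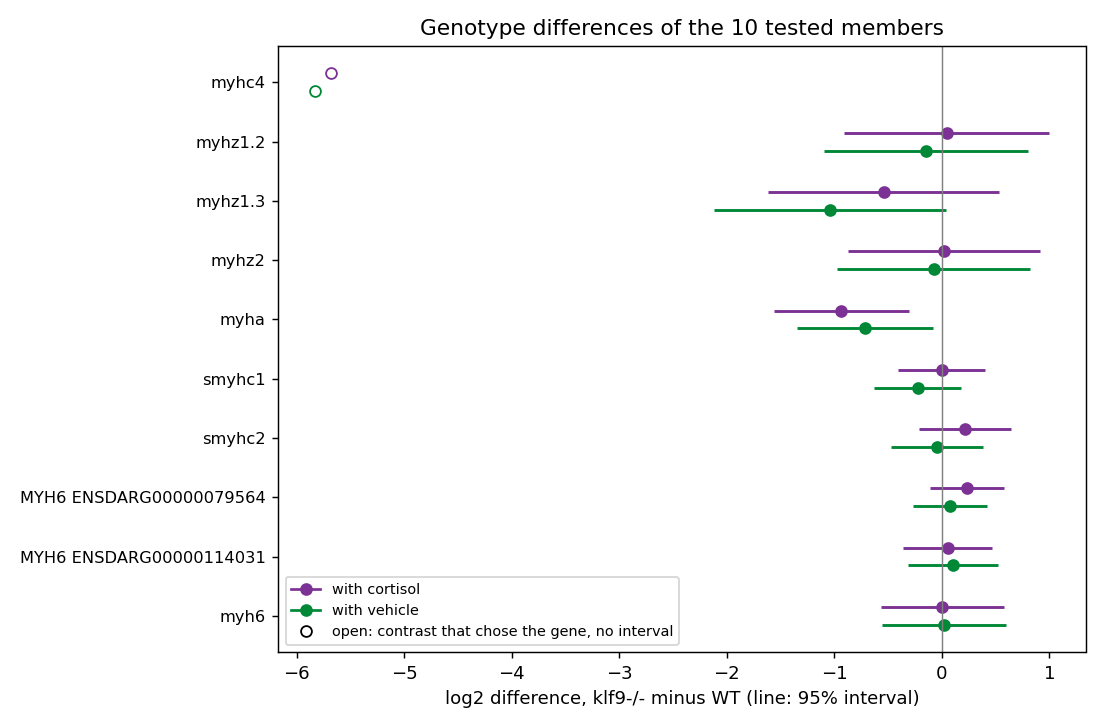
Log2 difference of klf9-/- minus WT larvae for the 10 tested members, with cortisol (upper point of each pair) and vehicle (lower point), and the 95% interval of the limma fit as a line. The open points are the myhc4 values, which chose the gene and have no interval. myhc4 stands near -6 in both treatments, myha between -1 and 0, and the intervals of all others include 0.

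The slow-muscle heavy chains stood lower on the ladder, where steps are finer, and did not differ by genotype beyond the spread. smyhc1 (ENSDARG00000099959) had 4300, 4380, 9630 and 9630 normalized counts in klf9-/- larvae with cortisol, against 4202, 4202, 9993 and 9993 in WT larvae with cortisol. With vehicle it had 7868, 5729, 9993 and 10699 in klf9-/- larvae, against 11406, 6552, 9993 and 12084 in WT larvae. The log2 difference was -0.0034 with cortisol (95% interval -0.41 to 0.40, adjusted p = 0.997) and -0.23 with vehicle (-0.63 to 0.18, adjusted p = 0.693). The upper bounds correspond to 1.32-fold with cortisol and 1.13-fold with vehicle.

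smyhc2 (ENSDARG00000103969) had 1107, 1256, 1921 and 1698 normalized counts in klf9-/- larvae with cortisol, against 1029, 990, 1462 and 1682 in WT larvae with cortisol. Within each preparation day both mutant samples with cortisol lay above both WT samples with cortisol, while over both days the groups overlapped. The share of all genes that part in this way was not computed, so nothing is read from it. In vehicle it had 1991, 1462, 1747 and 1862 in klf9-/- larvae, against 2692, 1591, 1411 and 1786 in WT larvae. The log2 difference was 0.21 with cortisol (95% interval -0.21 to 0.64, adjusted p = 0.742) and -0.05 with vehicle (-0.48 to 0.38, adjusted p = 0.960).

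Of the 3 gene IDs under the symbol myh6, only ENSDARG00000090637 is listed in lower case, as the zebrafish gene whose product is the atrial heavy chain. It was low everywhere, with 42, 38, 56 and 33 normalized counts in klf9-/- larvae with cortisol, against 51, 48, 33 and 36 in WT larvae with cortisol, and 36, 52, 26 and 19 in klf9-/- larvae with vehicle, against 50, 55, 20 and 16 in WT larvae with vehicle. Its log2 difference was 0.01 with cortisol (95% interval -0.57 to 0.58, adjusted p = 0.997) and 0.02 with vehicle (-0.56 to 0.59, adjusted p = 0.990). The other IDs are listed as MYH6, a human-style symbol that does not say which zebrafish heavy chain they are, and no role is given to them here.

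MYH6 (ENSDARG00000079564) ran between 660 and 1002 normalized counts in klf9-/- larvae with cortisol, against 530 to 892 in WT larvae with cortisol, and between 898 and 1020 in klf9-/- larvae with vehicle, against 711 to 1175 in WT larvae with vehicle. Its log2 difference was 0.23 with cortisol (95% interval -0.11 to 0.58, adjusted p = 0.623) and 0.08 with vehicle (-0.26 to 0.42, adjusted p = 0.899). MYH6 (ENSDARG00000114031) ran between 114 and 191 in klf9-/- larvae with cortisol, against 111 to 190 in WT larvae with cortisol, and between 190 and 234 in klf9-/- larvae with vehicle, against 152 to 278 in WT larvae with vehicle. Its log2 difference was 0.05 with cortisol (95% interval -0.36 to 0.47, adjusted p = 0.952) and 0.10 with vehicle (-0.31 to 0.52, adjusted p = 0.888).

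**Figure D4:**
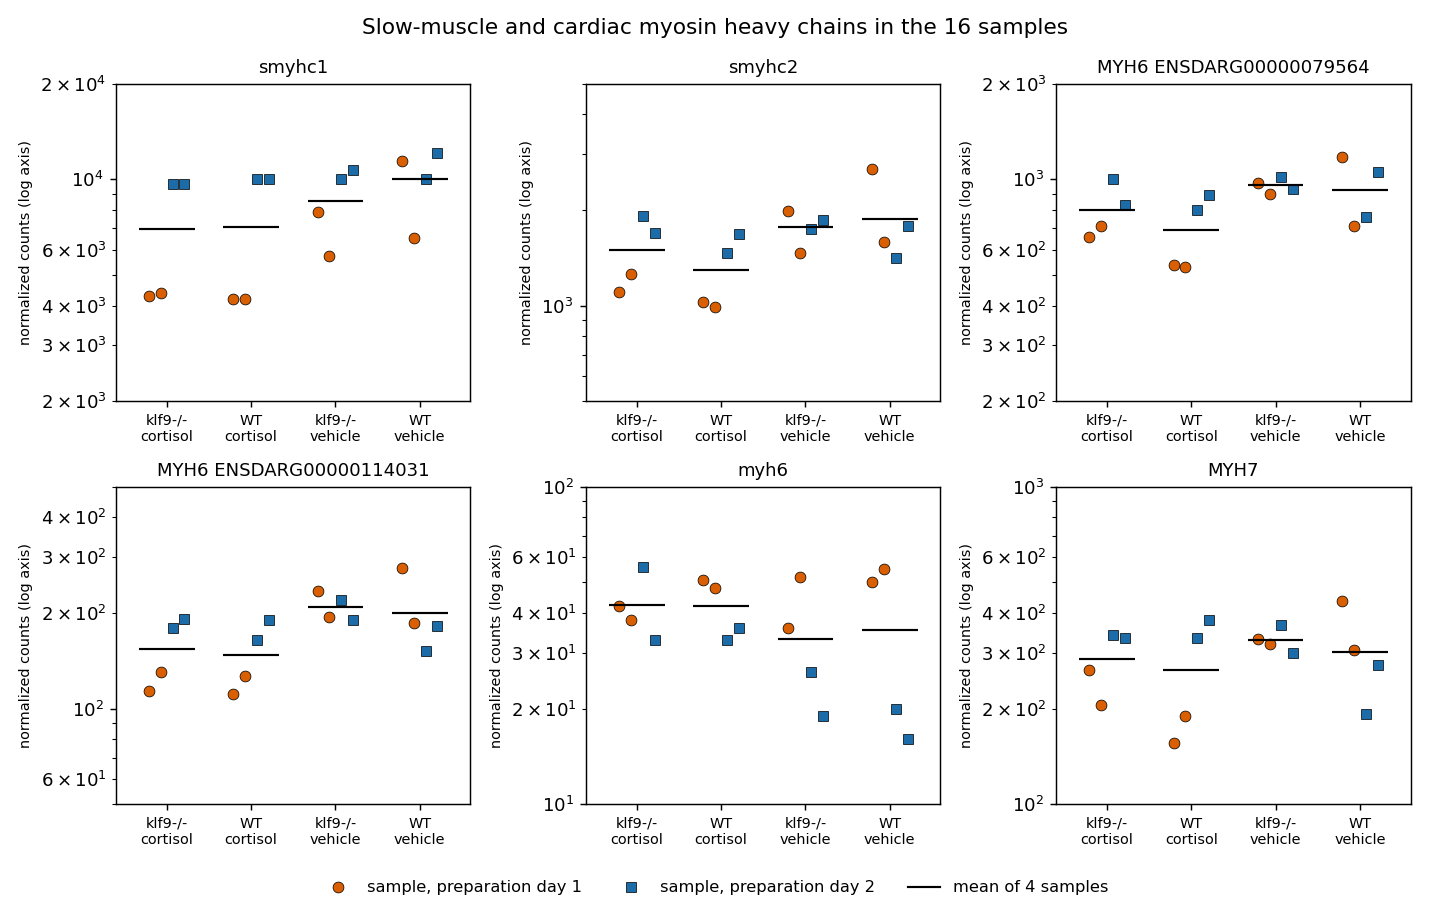
Normalized counts per sample, on log axes, of the slow-muscle genes smyhc1 and smyhc2, the 3 genes under the symbol myh6 or MYH6, and the gene listed as MYH7, which is not a member. Groups run from klf9-/- with cortisol to WT with vehicle, points are samples marked by preparation day, and lines are means of 4 samples. The genotypes overlap in every panel and in both treatments.

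Counted together, 0 of the 9 tested members other than myhc4 were called in either direction for genotype, with cortisol (0.577% of all genes called higher and 1.45% lower) or with vehicle (0.242% higher and 0.368% lower). At shares this low, 0 of 9 is near the background and is not a result particular to the members. At an unadjusted p under 0.05 there was 1 of 9 in each treatment, myha, beside 12.6% of all genes with cortisol and 12.7% with vehicle. The 9 log2 differences ran from -0.94 to 0.23 with cortisol (median 0.02) and from -1.04 to 0.10 with vehicle (median -0.08), beside medians of 0.02 and 0.01 over all genes tested. A p that misses the threshold does not show equal levels. The widest intervals belong to the myhz genes of the upper steps.

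Heavy chains outside the members were read in the same way. RefSeq gives vmhc as an older name of myh7, and the gene listed as MYH7 (ENSDARG00000079782) had 264, 206, 340 and 333 normalized counts in klf9-/- larvae with cortisol, against 156, 190, 334 and 381 in WT larvae with cortisol. With vehicle it had 332, 320, 366 and 300 in klf9-/- larvae, against 436, 306, 192 and 274 in WT larvae. Whether this ID is the ventricular gene was not settled here. Its log2 difference was 0.18 with either treatment (adjusted p = 0.859 with cortisol and 0.841 with vehicle).

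Of 8 symbols listed for other sarcomeric heavy chains, 4 matched. The symbols smyhc3, myh7l, vmhcl and myh13 matched no gene ID, so those paralogs were not read. Of the 4 matched (MYH7, myhb, myh7ba and myh7bb), 0 were called for genotype, and all 4 had estimates above 0 in both treatments. Their median was 0.21 with cortisol and 0.14 with vehicle, beside 0.02 and 0.01 over all genes tested. The lowest adjusted p was that of myh7bb, a relative of the heavy chain MYH7B, at 0.24 on the log2 scale with cortisol (SE 0.07, adjusted p = 0.103). Of 6 smooth-muscle and non-muscle heavy chains, 0 were called, and the non-muscle gene MYH10 had the lowest adjusted p, with -0.33 on the log2 scale with cortisol (adjusted p = 0.136) and -0.39 with vehicle (adjusted p = 0.102). Over all genes, 0.577% were called higher and 1.45% lower with cortisol, and 0.242% higher and 0.368% lower with vehicle. Beside these shares, 0 of 4 and 0 of 6 are near the background. A further fast-type paralog, myhz1.1l, named after its values were seen, was at -0.05 with cortisol and -0.06 with vehicle.

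Partners of myosin and other muscle genes were counted by list, against the same low shares of all genes (1.45% called lower and 0.577% higher with cortisol, 0.368% lower and 0.242% higher with vehicle), so that a count of 0 in lists of this size is near the background. With each treatment 0 of 9 myosin light chains, 0 of 13 thick filament and M-band genes, 0 of 6 myosin chaperones, 0 of 21 fast-muscle markers, 0 of 6 slow-muscle markers, 0 of 11 heart markers and 0 of 18 muscle transcription factors were called. These lists hold matched genes only. Of 12 light chain symbols 8 matched, and mylpfa, mylpfb, mylz3 and myl3 had no gene ID. Neither had myom3 of the M-band list or nkx2.5 of the heart list. Estimates for the slow-muscle markers were above 0 in klf9-/- larvae for 6 of 6 with cortisol (median 0.12) and 5 of 6 with vehicle (median 0.21). Those for the heart markers were above 0 for 9 of 11 with cortisol (median 0.21) and 7 of 11 with vehicle (median 0.26). The medians over all genes tested were 0.02 with cortisol and 0.01 with vehicle, and these leanings were not tested. The chaperones had a median log2 difference of 0.09 with cortisol and -0.18 with vehicle. Among the chaperones, the genes listed as SMYD1, a methyltransferase that acts in thick filament assembly, came nearest with vehicle, at -0.57 (SE 0.14, adjusted p = 0.068) and -0.35 (SE 0.09, adjusted p = 0.096). MYBPC3, a cardiac myosin-binding protein, was at 0.31 with cortisol (SE 0.08, adjusted p = 0.052), and the slow troponin TNNT1 was at 0.37 with vehicle (SE 0.08, adjusted p = 0.058). Of the 24 fast-muscle markers, 3 had 1 value in all samples, as myhz1.1 did, and could not be tested.

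Near myhc4 in the gene order, 12 of the 20 genes within 10 places on either side matched 1 ID each, and 11 of them varied and were tested. Of these 11, 1 was called, hspb15, a small heat shock protein gene on the far side of myhz1.1, and it was higher in klf9-/- larvae, by 0.58 on the log2 scale with cortisol (SE 0.14, adjusted p = 0.039) and 0.67 with vehicle (SE 0.14, adjusted p = 0.038), beside 0.577% of all genes called higher with cortisol and 0.242% with vehicle. The genes on either side of myhc4 are themselves members, myhz2 and myha, with the values above.

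Genes with a pattern like that of myhc4 were ranked as a description. By the larger of the log2 differences with vehicle and with cortisol, over the same 16 samples, the 5 genes after myhc4 (-5.68) were si:dkey-188g12.2 (-4.82), hspa12a.1 (-3.46), si:ch73-56d11.3 (-3.22), hspa12a.2 (-3.18) and ENSDARG00000033587 (-3.16). The first 4 of these had at most 29 normalized counts in any sample. si:dkey-188g12.2 had 0 to 1 normalized counts in klf9-/- larvae with cortisol, against 8 to 29 in WT larvae with cortisol, and 0 to 3 in klf9-/- larvae with vehicle, against 7 to 21 in WT larvae with vehicle. ENSDARG00000033587 had 1 to 4 in klf9-/- larvae with cortisol, against 29 to 94 in WT larvae with cortisol, but 0 to 3 in klf9-/- larvae with vehicle, against 1 to 4 in WT larvae with vehicle, so its genotypes overlapped with vehicle. The genotypes of hspa12a.1 overlapped with vehicle too, at 0 to 3 in klf9-/- larvae, against 1 to 11 in WT larvae. Those of si:ch73-56d11.3 met at 2 with vehicle, at 0 to 2 against 2 to 9. Near 0 these log2 values depend on the 0.1 that the authors added, and no test is given for genes chosen this way.

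Cortisol had no called effect on myhc4 in either genotype. The log2 difference of cortisol minus vehicle was -0.29 in klf9-/- larvae (95% interval -1.27 to 0.69, adjusted p = 0.713) and -0.44 in WT larvae (-1.42 to 0.54, adjusted p = 0.524). The difference between these effects was 0.15 (95% interval -1.23 to 1.54, adjusted p = 0.998). In WT larvae the samples of the days moved in opposite directions: both cortisol samples of day 1 lay below both vehicle samples of that day, with a mean log2 difference of -1.66, and on day 2 the difference was 0.78. In a fit of day 1 alone the WT difference of myhc4 was called (adjusted p = 0.015), and without replicate 1 of the WT vehicle group, the highest WT sample, the difference over both days was 0.08 (adjusted p = 0.924).

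Among the 10 tested members, 0 were called for cortisol in klf9-/- larvae and 0 in WT larvae, beside 2.57% of all genes called higher and 2.7% lower in klf9-/- larvae and 4.84% higher and 4.12% lower in WT larvae. At an unadjusted p under 0.05 there were 3 of 10 in klf9-/- larvae, beside 28.0% of all genes, and 7 of 10 in WT larvae, beside 33.0% of all genes. In each genotype 9 of the 10 estimates were below 0, with myh6 (ENSDARG00000090637) above 0. They ran from -1.05 to 0.42 in klf9-/- larvae (median -0.42) and from -1.14 to 0.43 in WT larvae (median -0.54), and the lowest adjusted p was 0.105 in klf9-/- larvae and 0.059 in WT larvae. The medians over all genes tested were -0.0063 in klf9-/- larvae and -0.0314 in WT larvae. No member was called in the difference of the cortisol effects between genotypes (adjusted p of at least 0.988, and 0 of 10 at an unadjusted p under 0.05 beside 5.63% of all genes), for which 0.0% of all genes were called higher and 0.172% lower.

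These cortisol counts depended on the preparation day and on single libraries. In day 1 alone, 2 members were called lower with cortisol in klf9-/- larvae (MYH6 ENSDARG00000114031 and myhz1.2), beside 2.22% of all genes called lower, and 9 in WT larvae (all tested members but myh6), beside 16.0%. Day 2 alone called 0 in klf9-/- larvae, beside 0.601% of all genes lower, and 0 in WT larvae, beside 0.144%. With a mean for each condition and day, 4 were called lower in klf9-/- larvae, beside 10.9% of all genes, and 6 in WT larvae, beside 14.5%. In the 8 samples of a genotype alone, 4 were called lower in klf9-/- larvae, beside 6.9% of all genes, and 0 in WT larvae, beside 0.158%. Within day 1 the WT differences of myhz1.2, myhz1.3 and myhz2 were -2.56, -2.29 and -2.20, and within day 2 they were 0.38, 0.00 and -0.09. In klf9-/- larvae those of myhz1.2, myhz1.3 and myhz2 were -1.42, -0.44 and -0.88 within day 1, and -0.38, -0.84 and -1.22 within day 2. Leaving out replicate 3 of the WT vehicle group gave 7 members called lower in WT larvae, beside 8.6% of all genes, and leaving out replicate 4 of the WT cortisol group gave 2, beside 8.42%. Leaving out replicate 1 of the WT vehicle group gave 3 in klf9-/- larvae, beside 7.32%. With each of the other samples left out in turn the count was 0 in both genotypes.

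**Figure D5:**
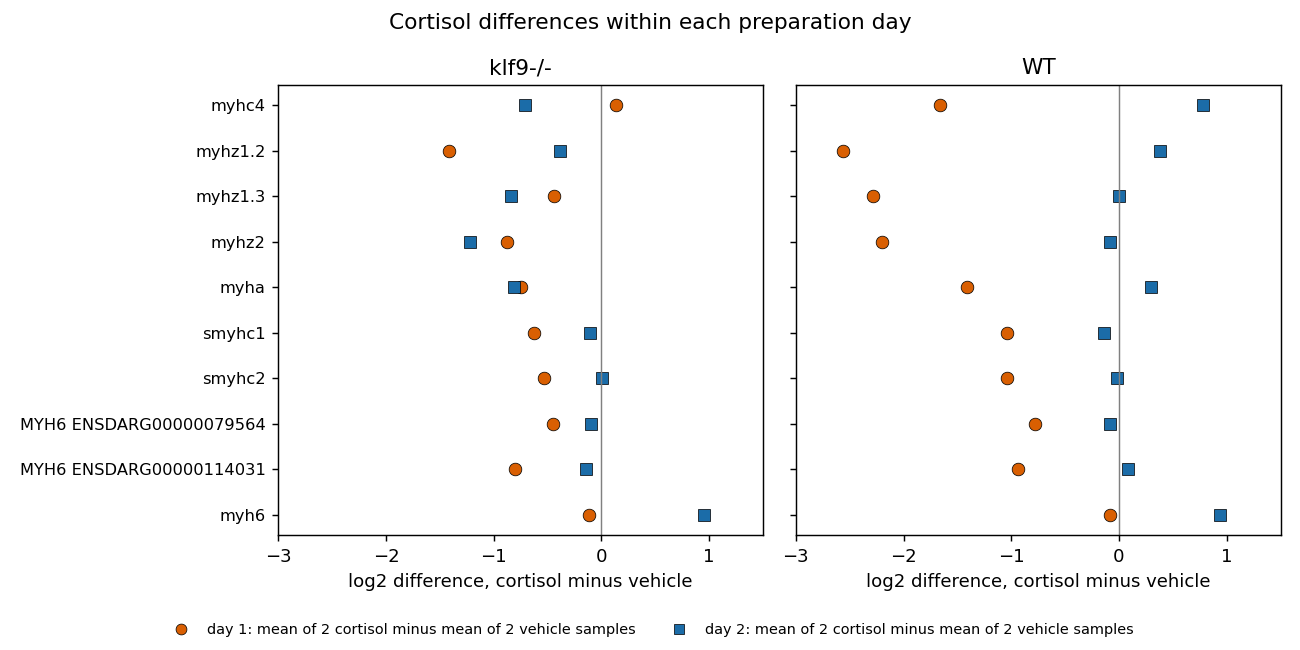
Log2 difference of cortisol minus vehicle within each preparation day for the 10 tested members, in klf9-/- larvae (left) and WT larvae (right), each point the mean of 2 cortisol samples minus the mean of 2 vehicle samples. In WT larvae the day 1 points of the myhz genes lie between -2.56 and -2.20 and their day 2 points between -0.09 and 0.38.

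The preparation day was compared in the same fit. Of the 10 tested members 6 were called higher on day 2 (myhz1.2, myhz1.3, myhz2, myha, smyhc1 and MYH6 ENSDARG00000079564). The 1 called lower was myh6 (ENSDARG00000090637). Of all genes, 30.3% were called higher and 32.7% lower. Over both directions 7 of 10 is near the share of all genes, but by direction the members leaned higher. Estimates were above 0 for 9 of 10 (median 0.75), beside a median of -0.04 over all genes, and this lean was not tested. The call of MYH6 ENSDARG00000079564 (adjusted p = 0.046) was lost in 12 of the 16 fits with 1 sample left out, without a variance trend and with fast-muscle genes set equal, while the other 6 were called in all 16. Without replicate 1 of the WT vehicle group 9 members were called higher, myhc4 among them, and without its replicate 3 there were 8. The share of all genes called in these fits is not given here, so nothing is read from the larger counts for the members. The differences of day 2 minus day 1 were 2.62 for myhz1.3, 2.09 for myhz2, 1.52 for myhz1.2, 0.91 for myha and 0.84 for smyhc1 on the log2 scale, and -0.73 for myh6 (ENSDARG00000090637). That of myhc4 was 0.66 (SE 0.33, adjusted p = 0.089). Per the study's methods, samples of day 1 stood in lysis buffer before homogenization while samples of day 2 were homogenized at once. The study also relates this variance to the order of sample collection. It proposes a stress response, for example to capture, in the later samples, which are those of day 2. Preparation day and collection order thus cannot be told apart here, and the part of either in the day difference was not tested.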

How the data were processed

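Poly(A) RNA libraries (KAPA kit, single-end Illumina reads) were processed by the authors: trimming with Trimmomatic 0.38, alignment to GRCz11 (Ensembl annotation) with STAR 2.6.1b, gene-level estimation with RSEM 1.3.0, then within-sample GC and between-sample full-quantile normalization with EDASeq in R 3.6.1. The deposited values are log2 of these normalized counts plus 0.1, per the file header and the values; DESeq2 1.24.0 was used by the authors on their own counts and its results are not used here. Depth per sample is not recoverable, so no counting interval is given.

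Gene IDs were paired with symbols for 21794 of 22994 genes. Differences were fitted with limma 3.58.1 (R 4.3.3) on the deposited log2 values of the 16 samples, as 4 condition means plus preparation day, with a trended variance and Benjamini-Hochberg adjustment, two-sided. The 21490 genes averaging 5 or more normalized counts entered, of which 11 had 1 value in all samples and were left out, leaving 21479. A gene was called at an adjusted p under 0.05. The fit was tested on simulated data. Summed paralogs were compared by an exact permutation test, and tables and figures were made with Python 3. Alternatives were another minimum mean, no minimum, another added value, other model terms, each day alone, scaling to fast-muscle genes and leaving out each sample. The members and gene lists were chosen with earlier results of these data known. Every member was named, cortisol effects were named for myhc4 and for members called, list genes by lowest adjusted p (up to 4 a list), and neighbours where called. Sequences and transcript lengths were not used here.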

Additional observations from a re-analysis of the deposited data

Results flagged for a closer look

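Each member was searched in each group of 4 for a sample far from the other 3. In WT larvae with vehicle, replicate 2 of myhz1.3 had 15582 normalized counts while the other 3 samples had 121468 each, so the gap to its neighbour was the whole range of the group. Replicate 2 belongs to preparation day 1, and in the other groups both day 1 samples of myhz1.3 were as low as this one or lower. For continuous values about 1 in 20 groups would be picked out in this way by chance, and 1 of 40 was. Here the other 3 samples were tied on 1 step of the ladder, so that rate need not hold.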

How the results depend on the processing

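The klf9-/- minus WT difference of myhc4, which the choice of the gene fixes in direction, ran between -5.26 and -5.94 with cortisol and between -5.31 and -6.34 with vehicle with 1 sample left out. Paralog differences near 0 changed sign in places, and so did that of myhz1.3 with cortisol, none of them called. The myhz1.3 difference with cortisol was -0.54 over both days and -1.22 in day 2 alone. In day 1 alone the sign turned for myhz1.3 (0.14) and smyhc1 (0.047) with cortisol, for MYH6 ENSDARG00000114031 (-0.094) with vehicle and for myh6 (-0.31 with cortisol and -0.28 with vehicle). In day 2 alone it turned for myhz1.2 (-0.38 with cortisol and 0.38 with vehicle), myhz2 (-0.46 with cortisol and 0.67 with vehicle) and smyhc2 (0.18 with vehicle). For myh6 it turned also with 10 added before log2 (-0.0077 with vehicle) and with fast-muscle genes set equal (-0.0033 with cortisol).

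Leaving out 1 sample gave, with cortisol, -0.25 to 0.30 for myhz1.2, -0.16 to 0.19 for myhz2, -0.078 to 0.071 for smyhc1, -0.29 to 0.18 for myh6 and -0.055 to 0.17 for MYH6 ENSDARG00000114031. With vehicle it gave -0.56 to 0.27 for myhz1.2, -0.54 to 0.43 for myhz2, -0.37 to 0.0094 for smyhc1, -0.22 to 0.20 for smyhc2, -0.063 to 0.27 for MYH6 ENSDARG00000079564, -0.19 to 0.19 for myh6 and -0.058 to 0.32 for MYH6 ENSDARG00000114031. The cortisol effect on myhc4 in WT larvae was -1.66 in day 1 alone, 0.78 in day 2 alone and -0.95 to 0.081 with 1 sample left out. In klf9-/- larvae it was 0.13 in day 1 alone. The difference of these effects was -1.49 in day 2 alone and -0.37 to 0.66 with 1 sample left out.

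The number of members other than myhc4 called for genotype with cortisol, 0, became 1 (myha) with a mean for each condition and day, in day 2 alone and in the 8 samples compared, and 0 to 1 with 1 sample left out. The share of all genes called in these genotype fits is not given here, so nothing is read from the 1 for the members. For cortisol in klf9-/- larvae the number called became 4 with a mean for each condition and day, beside 10.9% of all genes called lower. It became 2 in day 1 alone, beside 2.22%, and 4 in the 8 samples compared, beside 6.9%. With 1 sample left out it was 0 to 3, the 3 beside 7.32%. In WT larvae the number called became 6 with a mean for each condition and day, beside 14.5%, and 8 in day 1 alone, beside 16.0%. With 1 sample left out it was 0 to 7 in WT larvae, the 7 beside 8.6%. Without myhz1.1 the myhc4 share was 0.0603% in klf9-/- larvae with cortisol, against 2.56% in WT larvae, and 0.0320% in klf9-/- larvae with vehicle, against 1.49% in WT larvae. The cause of these changes was not tested. Of 803 recomputed values, 732 kept their direction and call, or stayed within the spread where there was no test. The others were 50 that changed direction, 16 that moved in size or count and 5 that gained a call. Most refits share nearly all samples, and an uncalled value counts as kept by staying uncalled. The tally is therefore no measure of how firm the results are.

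Same-numbered samples deviated together from their condition means (median correlation 0.456 over 24 pairs), but not beyond the preparation day (0.0034), so the numbers were not taken as pairs. With a replicate block the summed paralogs differed by -0.16 (exact permutation p = 0.27) and no call of a member for genotype changed. Shares divided by coding length and motif counts were not run. The ladder of values caps myhz1.1 and gives the other myhz genes coarse steps, and the depth behind each value is unknown.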
